A study of Mus musculus with 18 samples.

Results

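The insulin-like growth factor (IGF) axis was followed in primary mouse cholangiocytes, which form the lining of bile ducts, through 10 genes matched by symbol to the gene identifiers of the count tables. They were the ligand gene Igf1, the receptor genes Igf1r, Igf2r and Insr, and the binding protein genes Igfbp2, Igfbp3, Igfbp4, Igfbp5, Igfbp6 and Igfbp7. All 10 of 10 were found among the 55401 genes counted. Polyadenylated RNA had been sequenced in 18 libraries, 3 in each of 6 groups. The groups were mice with polycystic liver disease (PLD), a disease of fluid-filled cysts of biliary origin, given CPTH6 or given ML324, with 3 months in the library titles, and untreated PLD and wild-type (WT) mice at 2 months and at 1 month after tamoxifen. CPTH6 is known to block histone acetylation by Kat2a and Kat2b, and ML324 to block histone demethylation by KDM4 enzymes. The labels name no inactivated gene, Cre driver, strain, sex, age, dose or vehicle, and they do not say whether replicates were separate animals, so p-values measure the spread between these libraries, which may be technical. Cells had been taken from perfused livers freed of parenchyma, with beads against the epithelial surface protein EpCAM.

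IGF1 is a growth factor that acts through the receptor tyrosine kinase encoded by Igf1r, a close relative of the insulin receptor encoded by Insr, and both receptors drive the PI3K, AKT and MAP kinase pathways. Igf2r encodes the cation-independent mannose 6-phosphate receptor, which removes IGF2 from the cell surface and carries lysosomal enzymes. The binding proteins hold IGFs in the blood and around cells and so limit or prolong their action. In the liver, hepatocytes are known as the main source of circulating IGF1, and cholangiocytes of polycystic liver disease have been described to express IGF1 and its receptor.

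Total counts ran from 16345740 to 29277311 per library. Levels are given as CPM, counts scaled to a common library total, and, where genes are set side by side, as RPKM, which also divides by exon length. Log2 fold changes carry standard errors (SE) or 95% intervals, and a gene is called where the edgeR quasi-likelihood test gives an adjusted p under 0.05 over all genes tested. The summed CPM of 16 cholangiocyte markers was 20044 to 25795 after CPTH6 and 17877 to 23272 after ML324, 15899 to 17759 in PLD and 2540 to 4546 in WT at 2 months, and 8669 to 13236 in PLD and 4054 to 8122 in WT at 1 month, so these markers were detected in all groups, at the lowest level in WT at 2 months, where they summed to less than the endothelial and the fibroblast markers. The same order held in WT replicates 1 and 2 at 1 month. They had 4705 and 4054 CPM of cholangiocyte markers, 5982 and 8378 of endothelial markers and 16477 and 18560 of fibroblast markers. In PLD replicate 3 at 1 month, fibroblast markers (14926 CPM) also summed to more than cholangiocyte markers (8669 CPM). Other cell types moved with the groups. Summed endothelial markers (16 genes) were 272 to 442 CPM after CPTH6, 194 to 930 after ML324, 949 to 2123 in PLD and 10669 to 19054 in WT at 2 months, and 3488 to 6777 in PLD and 3190 to 8378 in WT at 1 month. Stellate cell and fibroblast markers (18 genes) summed to 456 to 546 CPM after CPTH6, 359 to 1166 after ML324, 4114 to 8324 in PLD and 7321 to 15075 in WT at 2 months, and 11337 to 14926 in PLD and 3147 to 18560 in WT at 1 month. Of the WT libraries at 1 month, replicate 3 stood apart, with 3147 CPM of these fibroblast markers against 16477 and 18560, and replicate 2 of ML324 held 1166 CPM against 359 and 489. In RNA from a mixed preparation, fewer cells of a type and less RNA per cell cannot be told apart.

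**Figure D1:**
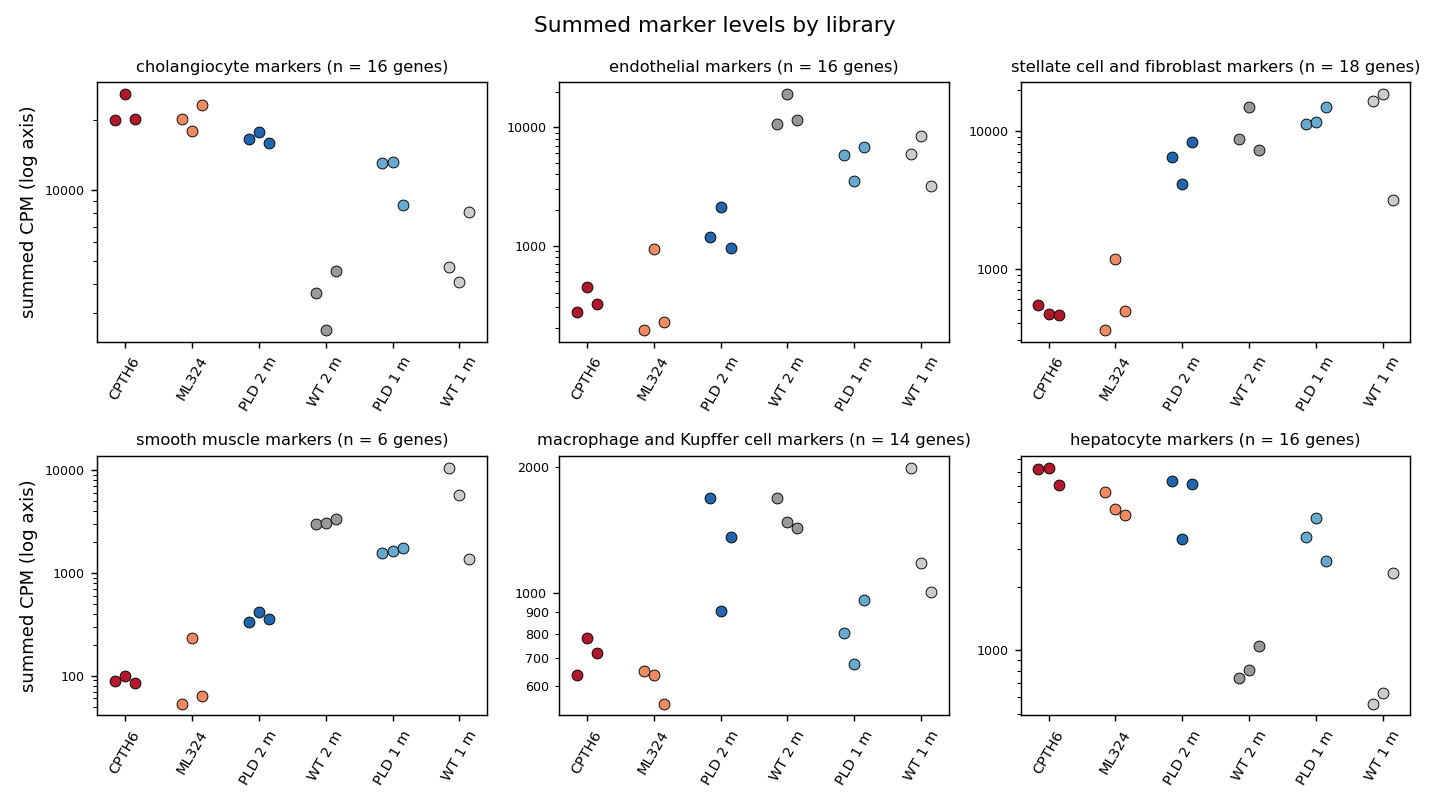
Summed CPM (log axis) of 6 marker lists in each of the 18 libraries, 3 points per group. Endothelial and smooth muscle markers were lower in every PLD library than in every WT library at 2 months, and fibroblast markers were lower in every treated library than in every untreated PLD library at 2 months.

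The binding proteins dominated the axis in every group when levels were set per length. Igfbp7, which encodes a secreted protein of the basement membrane with low affinity for IGFs, averaged 589 ± 70.7 RPKM after CPTH6, 514 ± 92.3 after ML324, 1144 ± 171 in PLD and 1408 ± 415 in WT at 2 months, and 1722 ± 289 in PLD and 1498 ± 852 in WT at 1 month (SD, n = 3). Its lowest library in a group lay above the highest library of the next gene in 5 of the 6 groups, and in WT at 1 month the ranges of Igfbp7 and Igfbp3 overlapped. Within each library of that group Igfbp7 still exceeded Igfbp3. Their shares of the summed RPKM of Igfbp2 to Igfbp7 were 67.4% to 72.5% and 7.41% to 18.8%. Igfbp3, Igfbp4 and Igfbp5 held ranks 2 to 4 in all 6 groups. Igfbp3, which encodes the main carrier of IGFs in blood, was at 327 ± 181 RPKM in PLD and 265 ± 36.1 in WT at 2 months, where Igfbp4 was at 108 ± 17.3 in PLD and 278 ± 74.9 in WT. Igfbp3 and Igfbp4 did not overlap in PLD at 2 months, whereas in WT at 2 months their ranges overlapped.

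The receptors lay below Igfbp3, Igfbp4, Igfbp5 and Igfbp7 by mean level in all 6 groups, though the range of Igf2r met that of Igfbp5 after ML324. Igf2r was at 16.3 ± 0.52 RPKM in PLD and 11.8 ± 1.40 in WT at 2 months, Insr at 12.7 ± 4.12 in PLD and 32.2 ± 5.25 in WT, and Igf1r at 6.76 ± 0.40 in PLD and 6.87 ± 1.56 in WT. Insr therefore ranked above Igf2r in WT at 2 months, without overlap of their ranges, while the ranges of both genes overlapped in PLD at 2 months. Igf1 was at 4.29 ± 1.86 RPKM in PLD and 4.27 ± 1.59 in WT at 2 months, and Igfbp2, the lowest of the 10 genes in every group, was at 2.08 ± 0.71 in PLD and 1.504 ± 0.458 in WT. Within the summed RPKM of the 6 binding protein genes, Igfbp7 made up 85.3% to 89.6% after CPTH6 and 81.9% to 85.5% after ML324, against 60.1% to 75.9% in untreated PLD at 2 months. Igfbp3 made up 3.41% to 3.90% after CPTH6 and 3.23% to 7.80% after ML324, against 13.4% to 32.4% in untreated PLD. These shares did not overlap between either compound and untreated PLD, and an exact test with 3 libraries against 3 could not pass 0.05.

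**Figure D2:**
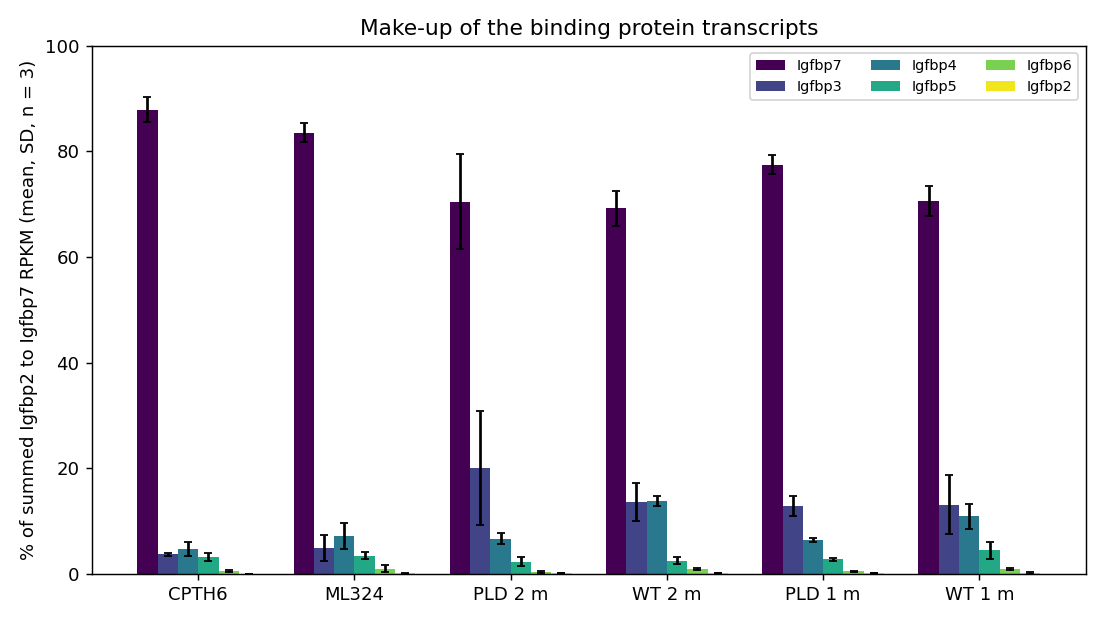
Share (%) of each gene in the summed RPKM of Igfbp2 to Igfbp7, as mean and SD of 3 libraries per group. Igfbp7 was the largest share in all 6 groups, and the share of Igfbp3 was 20.0% ± 10.7 in PLD at 2 months, above the 3.70% ± 0.26 after CPTH6 and the 4.90% ± 2.52 after ML324.

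RefSeq promoter windows (GRCm38.p6, the assembly called mm10) were matched for 9 of the 10 genes. The windows below hold the 250 bases before the RefSeq start of Igf1, Igfbp3, Igfbp4 and Igfbp7, 4 of the 5 genes that were lower after both compounds, and of Igf2r, which was higher in PLD at 2 months. They are shown because these genes carry the calls described further on, and Igfbp2, whose call rested on few reads, was left out. Capitals mark a TATA box (TATAAA), a GC box (GGGCGG) or a CCAAT box (CCAAT), searched on both strands.
Igf1, chr10:87860861-87861110, plus strand: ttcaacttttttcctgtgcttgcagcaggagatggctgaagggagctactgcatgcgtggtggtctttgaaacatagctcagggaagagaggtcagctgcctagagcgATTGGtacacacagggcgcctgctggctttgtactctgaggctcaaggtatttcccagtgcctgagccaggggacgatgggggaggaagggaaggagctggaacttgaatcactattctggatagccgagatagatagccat
Igfbp3, chr11:7213924-7214173, minus strand: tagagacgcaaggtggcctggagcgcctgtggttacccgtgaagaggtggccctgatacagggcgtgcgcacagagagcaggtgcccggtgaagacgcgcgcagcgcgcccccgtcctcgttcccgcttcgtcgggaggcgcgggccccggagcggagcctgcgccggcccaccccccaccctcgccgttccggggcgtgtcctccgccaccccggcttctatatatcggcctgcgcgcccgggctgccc
Igfbp4, chr11:99040994-99041243, plus strand: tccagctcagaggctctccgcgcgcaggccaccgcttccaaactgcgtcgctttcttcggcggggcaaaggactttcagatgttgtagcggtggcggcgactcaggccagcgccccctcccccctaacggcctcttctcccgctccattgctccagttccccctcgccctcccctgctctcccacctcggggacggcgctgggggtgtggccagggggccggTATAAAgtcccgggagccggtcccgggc
Igfbp7, chr5:77408046-77408295, minus strand: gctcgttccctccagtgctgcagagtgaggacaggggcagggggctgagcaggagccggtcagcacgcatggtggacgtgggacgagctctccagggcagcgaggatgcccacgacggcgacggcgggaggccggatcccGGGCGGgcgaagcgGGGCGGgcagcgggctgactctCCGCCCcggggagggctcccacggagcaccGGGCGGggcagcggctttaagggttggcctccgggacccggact
Igf2r, chr17:12769707-12769956, minus strand: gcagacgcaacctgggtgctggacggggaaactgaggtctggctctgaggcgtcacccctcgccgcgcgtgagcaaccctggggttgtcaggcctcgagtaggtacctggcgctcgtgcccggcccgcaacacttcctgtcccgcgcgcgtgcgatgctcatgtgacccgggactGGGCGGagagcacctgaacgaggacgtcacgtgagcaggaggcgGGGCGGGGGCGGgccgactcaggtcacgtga

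The windows differed in make-up. Igfbp4 held a TATA box that began 28 bases before the start, a motif found in 12.4% of all 32851 RefSeq windows of this length. Igfbp7 held 4 GC boxes and Igf2r 3, of which the last 2 lie back to back, and a GC box was found in 32.7% of windows. Igf1 held a CCAAT box on the other strand, a motif found in 33.8% of windows, and only 5 CpG, where Igfbp3 had 32 and the median window had 6. The Igf1 window lies inside the gene as counted, which begins at 87858265, so it precedes an inner start and not the outermost one. The window of Igfbp3 held none of the 3 motifs, which says only that these letters were not in it. The first of a pair of windows of Igfbp2 held 3 GC boxes and the second none. Igfbp2 and Igfbp5 lie tail to tail on chromosome 1, from 72824503 to 72852474 and from 72857932 to 72874884, with 5457 bases between them.

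At 2 months, where PLD was compared with WT, 3 of the 10 genes were called: Igf2r rose, and Insr and Igfbp4 fell. Of all 17749 genes tested, 40% were called in that comparison (19.7% higher, 20.3% lower), so 3 of 10 is no more than the share of all genes. The median change of the 10 genes was -0.14, against -0.03 for all genes tested. The groups did not overlap for 4 of the 10 genes, against 55.4% of all genes tested.

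Insr (ENSMUSG00000005534.10, chromosome 8 from 3122061 to 3279617, mm10) stood at 136, 239 and 148 CPM in PLD and at 362, 500 and 468 CPM in WT. Every PLD library lay below every WT library, and replicate 2 was the highest of each group. The change was -1.33 ± 0.23 (SE; edgeR adjusted p = 0.00146), a 2.52-fold fall. Igf2r (ENSMUSG00000023830.14, chromosome 17 from 12682406 to 12769664) stood at 146, 155 and 155 CPM in PLD and at 119, 116 and 95.3 CPM in WT. Its PLD libraries were all higher, with a narrow spread, and the change was 0.48 ± 0.11 (edgeR adjusted p = 0.0064), a 1.4-fold rise. Without a filter on low counts its adjusted p was 0.0548 (edgeR). Igf1r (ENSMUSG00000005533.10, chromosome 7 from 67952827 to 68233668) was at 121, 108 and 111 CPM in PLD and at 102, 98.1 and 145 CPM in WT, with overlapping groups and a 95% interval of -0.41 to 0.41. Among the receptors the genes thus took 3 different courses.

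Igfbp4 (ENSMUSG00000017493.12, chromosome 11 from 99041244 to 99054392), which encodes a binding protein known to restrain IGF until the protease encoded by Pappa cleaves it, had 483, 397 and 549 CPM in PLD and 1143, 1593 and 947 CPM in WT. The groups did not overlap, and the change was -1.35 ± 0.37 (edgeR adjusted p = 0.0147). Its call ended without PLD replicate 2 (edgeR adjusted p = 0.0545) and without WT replicate 2 (0.0571). Igfbp6 (ENSMUSG00000023046.6, chromosome 15 from 102144362 to 102149511), which encodes a binding protein that prefers IGF2, had 4.07, 10.9 and 6.37 CPM in PLD and 20.5, 28.8 and 13.9 CPM in WT. All PLD libraries were lower, but the change of -1.55 ± 0.59 missed the threshold (edgeR adjusted p = 0.0561); it passed with DESeq2 (adjusted p = 0.0213) and when only these 6 libraries were fitted (edgeR adjusted p = 0.0148). The other binding proteins and the ligand overlapped between the genotypes. Igfbp3 had 618, 1671 and 782 CPM in PLD and 706, 853 and 929 CPM in WT, where replicate 2 of PLD was the highest, and its interval of -1.10 to 1.73 leaves changes of either sign. Igf1 had 53.2, 21.2 and 52.9 CPM in PLD and 60.2, 35.5 and 31.0 CPM in WT (interval -0.86 to 0.92). Igfbp5 (change -0.36 ± 0.31), Igfbp7 (-0.28 ± 0.42) and Igfbp2 (0.49 ± 0.75) were not called either.

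The other cell types of the preparation moved in the same libraries. Of the endothelial markers, 16 of 16 were called lower in PLD at 2 months, with a median change of -3.24, and of the smooth muscle markers 6 of 6. Stellate cell and fibroblast markers had 7 of 18 lower and 1 higher, and cholangiocyte markers 13 of 16 higher and 0 lower, with a median of 1.94. Mesothelial markers had 5 of 6 lower and 1 higher, macrophage and Kupffer cell markers 5 of 14 lower and 1 higher, and hepatocyte markers 6 of 16 higher and 5 lower. Summed hepatocyte markers were nevertheless higher in PLD, at 3362 to 6322 CPM against 738 to 1042 in WT, without overlap. Their mean log2 levels overlapped, at 3.20 to 3.77 in PLD and 2.88 to 4.01 in WT. None of the markers in these lists was at 0 counts in all libraries of a group. Their part in the results for Insr, Igfbp4 and Igf2r was not tested.

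**Figure D3:**
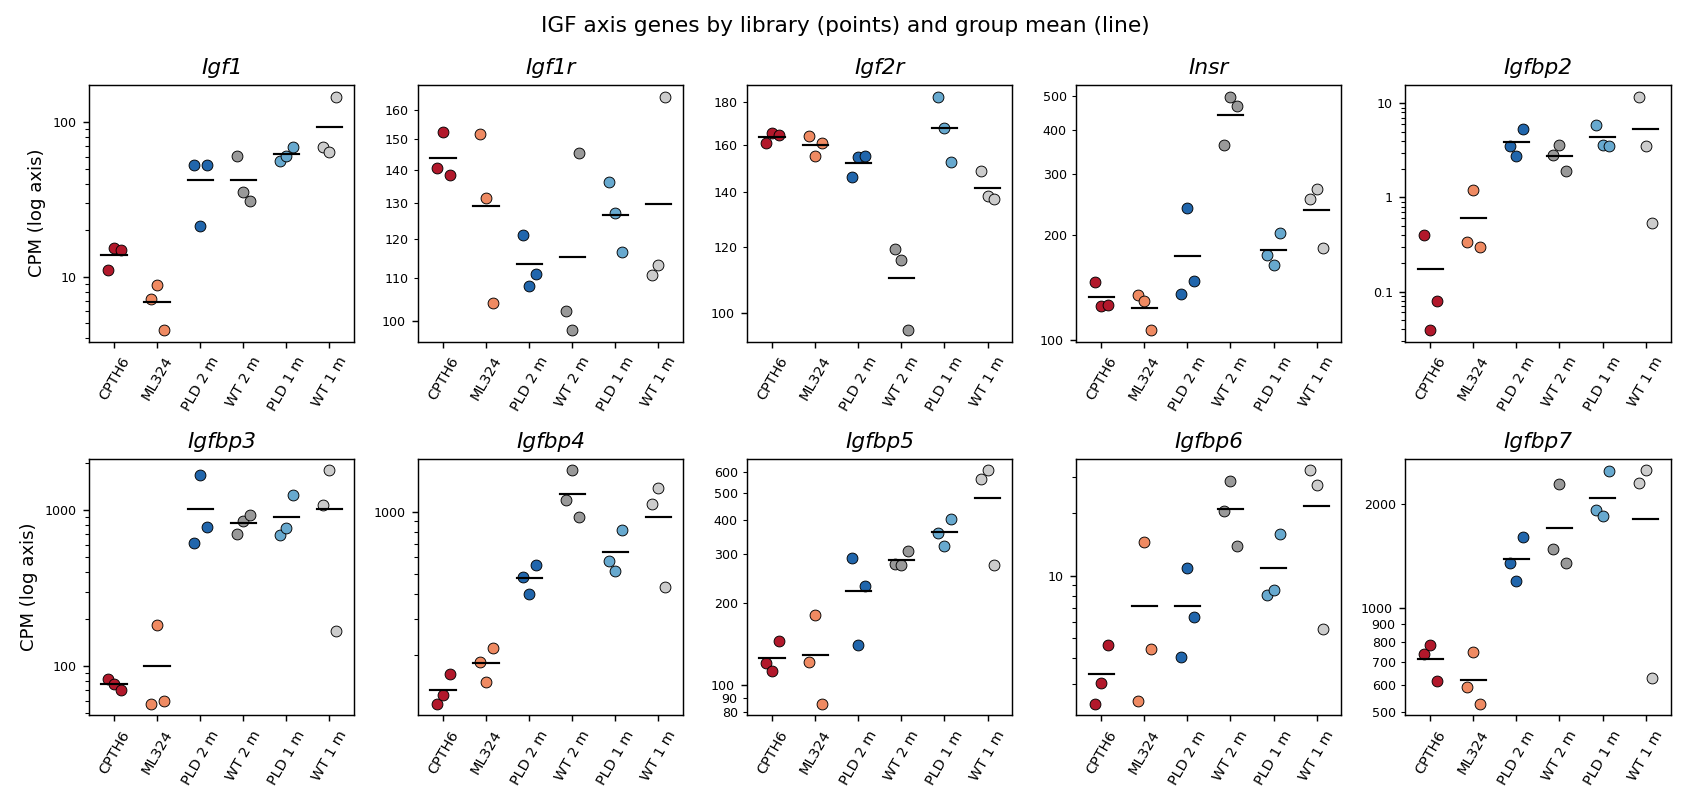
CPM of the 10 genes (log axis) in each of the 18 libraries, as points, with the mean of each group as a line. Insr and Igfbp4 were lower in every PLD library than in every WT library at 2 months, while Igf1, Igfbp2, Igfbp3, Igfbp4 and Igfbp7 were lower in every treated library than in every untreated PLD library at 2 months.

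At 1 month, 0 of the 10 genes were called between PLD and WT (5.03% of all genes tested, 3% higher and 2.02% lower), 0 had an unadjusted p under 0.05 (24.2% of all genes) and DESeq2 called 0 (14% of all genes). The largest differences were those of Igfbp6 (-1.02 ± 0.57), Igf1 (-0.61 ± 0.40) and Igfbp4 (-0.59 ± 0.36; adjusted p = 0.305, 0.386 and 0.351 by edgeR). Only Igf2r had groups that did not overlap (26.7% of all genes tested), with 183, 167 and 152 CPM in PLD and 149, 139 and 137 CPM in WT, and a change of 0.22 ± 0.11 (edgeR adjusted p = 0.246). WT replicate 3 set much of the spread. Igfbp3 stood at 697, 770 and 1258 CPM in PLD, and in WT at 167 CPM in that library against 1080 and 1801 in the others. Igfbp7 stood there at 627 CPM against 2306 and 2500, and Igf1 went the other way, at 146 CPM against 69.0 and 64.4. Without that library Igfbp4 (-0.93, edgeR adjusted p = 0.0296) and Igfbp6 (-1.47, adjusted p = 0.03) were called lower in PLD, so the count at 1 month was 2 of 10 instead of 0, where 18.8% of all genes tested were called. Igf1 differed by -0.12 without it. WT replicate 3 held the most cholangiocyte markers of its group (8122 CPM against 4705 and 4054). It held the fewest endothelial markers (3190 CPM against 5982 and 8378) and smooth muscle markers (1354 CPM against 10572 and 5762). Leaving it out therefore kept the WT libraries poorer in cholangiocyte markers, and the part of cell make-up in these calls was not tested.

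Over time, 0 of the 10 genes were called in PLD (9.61% of all genes tested, 4.38% higher and 5.23% lower) and 0 in WT (0.0507%, 0.0113% higher and 0.0394% lower) by edgeR between 2 months and 1 month. At an unadjusted p under 0.05 the counts were 1 in PLD (29.3% of all genes) and 4 in WT (15.1% of all genes), and DESeq2 called 0 in PLD (19.7% of all genes) and 2 in WT (4.66% of all genes). In PLD the gene with the unadjusted p was Igfbp5 (ENSMUSG00000026185.8), which encodes a binding protein of bone, muscle and connective tissue. It had 292, 141 and 230 CPM at 2 months and 360, 322 and 404 CPM at 1 month, without overlap, a change of -0.69 ± 0.31 (edgeR adjusted p = 0.163). In PLD the times also did not overlap for Igf1 and Igfbp7, so for 3 of the 10 genes, and for 7712 of all 17749 genes tested. In WT the receptor genes Insr and Igf2r had opposite values. Insr had 362, 500 and 468 CPM at 2 months and 254, 272 and 183 CPM at 1 month, a change of 0.90 ± 0.23 (edgeR adjusted p = 0.137; DESeq2 adjusted p = 0.0157). Igf2r had 119, 116 and 95.3 CPM at 2 months and 149, 139 and 137 CPM at 1 month, a change of -0.38 ± 0.11 (edgeR adjusted p = 0.168; DESeq2 adjusted p = 0.0255). Neither gene's groups overlapped, nor did those of Igf1. In WT the times did not overlap for 3 of the 10 genes and for 2969 of all 17749 genes tested. In PLD the same genes differed by -0.04 ± 0.23 (Insr) and -0.12 ± 0.11 (Igf2r) between the times. In WT, Igf1 had 60.2, 35.5 and 31.0 CPM at 2 months and 69.0, 64.4 and 146 CPM at 1 month (-1.16 ± 0.41, edgeR adjusted p = 0.222).

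Whether the difference between PLD and WT itself changed with time was tested as an interaction, for which 0 of the 10 genes were called (5.68% of all genes tested, 2.55% higher and 3.13% lower), with 1 at an unadjusted p under 0.05 (23.7% of all genes) and 0 by DESeq2 (13.4% of all genes). That gene was Insr, whose difference between PLD and WT was -1.33 at 2 months and -0.40 at 1 month, an interaction of -0.93 ± 0.32 (interval -1.65 to -0.22, edgeR adjusted p = 0.118). It passed without PLD replicate 2 at 2 months (-1.19, edgeR adjusted p = 0.0433). For Igf2r the interaction was 0.26 ± 0.16 and for Igfbp4 -0.75 ± 0.51, so a difference between the times was not shown for either. In the same test 14 of 16 endothelial markers were called lower (median -2.92), and their part in the value for Insr was not tested.

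**Figure D4:**
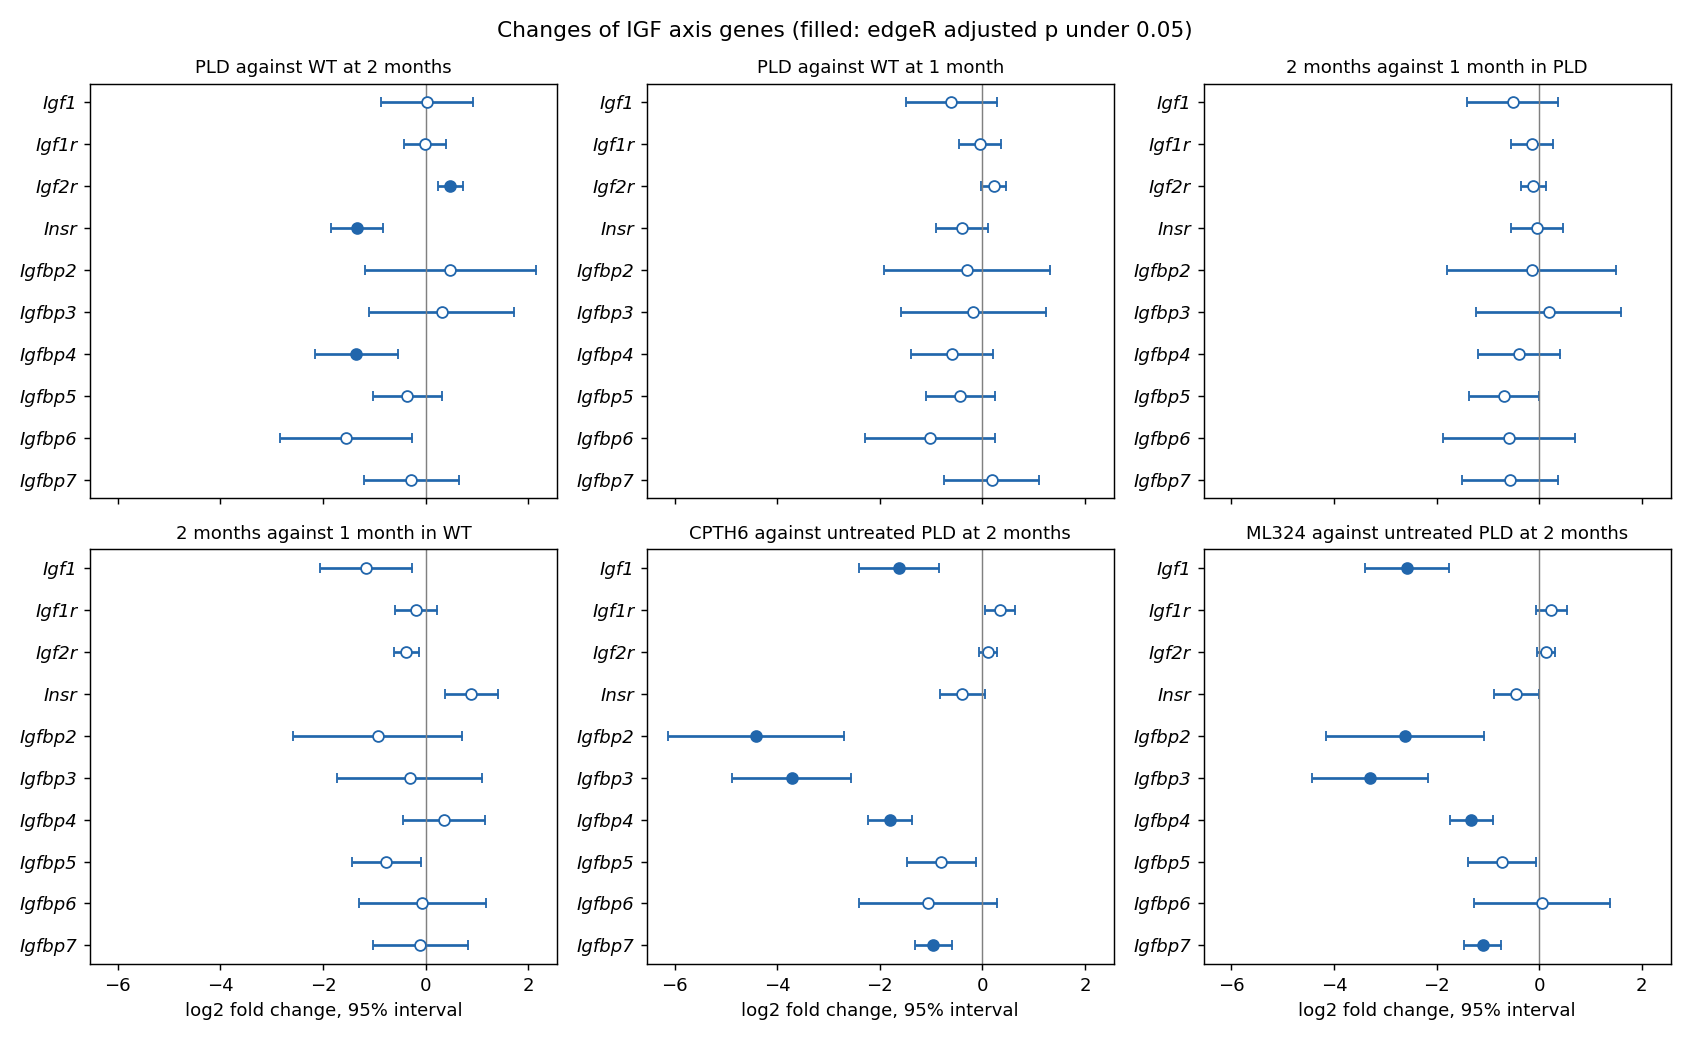
Log2 fold changes of the 10 genes with 95% intervals in 6 comparisons, with filled points where the edgeR adjusted p was under 0.05. Igf2r, Insr and Igfbp4 were called in PLD against WT at 2 months, and Igf1, Igfbp2, Igfbp3, Igfbp4 and Igfbp7 were called lower after each compound. The calls of Igfbp2 rested on few reads.

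Treated PLD libraries were compared with untreated PLD at 2 months. The treated mice were also later in time, no vehicle group of that time was analysed here, and the labels describe their library construction in a sentence of its own, so compound, time and library batch cannot be told apart. Igf1, Igfbp2, Igfbp3, Igfbp4 and Igfbp7 fell with CPTH6 and with ML324, 5 of 10 genes each, and 0 rose. Of these, Igfbp2 passed the filter on low counts through the untreated libraries, so it adds nothing to these counts. Of all 16502 genes tested, 23.1% were called with CPTH6 (9.39% higher, 13.7% lower) and 19.4% with ML324 (7.96% higher, 11.4% lower). Among the members other than Igfbp2, the middle change was -0.95 with CPTH6 (that of Igfbp7) and -0.73 with ML324 (that of Igfbp5). The medians of all genes tested were -0.04 and -0.01. Both comparisons share the untreated libraries.

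The ligand and the binding proteins gave the falls. Igf1 (ENSMUSG00000020053.18, chromosome 10 from 87858265 to 87937042) stood at 11.02, 15.4 and 14.8 CPM after CPTH6 and at 7.21, 8.85 and 4.54 CPM after ML324, against 53.2, 21.2 and 52.9 CPM in untreated PLD. Every treated library lay below the lowest untreated one. The changes were -1.62 ± 0.35 with CPTH6 (edgeR adjusted p = 0.00971) and -2.58 ± 0.37 with ML324 (edgeR adjusted p = 0.00212). Igfbp3 (ENSMUSG00000020427.11, chromosome 11 from 7206086 to 7213923) stood at 83.5, 77.1 and 70.8 CPM after CPTH6 and at 57.7, 184 and 60.4 CPM after ML324, against 618, 1671 and 782 CPM in untreated PLD. It fell 13.2-fold with CPTH6 (-3.72 ± 0.52, edgeR adjusted p = 0.00138) and 9.84-fold with ML324 (-3.30 ± 0.51, edgeR adjusted p = 0.00289). ML324 replicate 2 was the high library of its group here, as it was for the fibroblast and endothelial markers.

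Igfbp4, with its TATA box, stood at 116, 129 and 162 CPM after CPTH6 and at 185, 149 and 218 CPM after ML324, against 483, 397 and 549 CPM in untreated PLD. The changes were -1.81 ± 0.19 with CPTH6 (edgeR adjusted p = 0.000458) and -1.32 ± 0.19 with ML324 (edgeR adjusted p = 0.00212). Igfbp7 (ENSMUSG00000036256.13, chromosome 5 from 77349240 to 77408041) stood at 735, 783 and 617 CPM after CPTH6 and at 590, 746 and 529 CPM after ML324, against 1347, 1197 and 1605 CPM in untreated PLD. Its falls were smaller, -0.95 ± 0.16 with CPTH6 (edgeR adjusted p = 0.00336) and -1.10 ± 0.16 with ML324 (edgeR adjusted p = 0.00245), and 85 bases of its exons (7.03%) overlap Polr2b on the other strand, where counting without strand cannot tell the genes apart. Igfbp2 (ENSMUSG00000039323.18) rested on few reads, 10, 1 and 2 counts after CPTH6 and 6, 20 and 5 after ML324, against 60, 51 and 108 in untreated PLD. It passed the filter on low counts through the untreated libraries, where it was high, so its falls (-4.42 ± 0.76 with CPTH6 and -2.62 ± 0.69 with ML324, edgeR adjusted p = 0.00367 and 0.0271) add nothing to the count of 4 of the other 9 genes. The ML324 call for Igfbp2 ended without ML324 replicate 1 (edgeR adjusted p = 0.0866) or 3 (0.0906), or PLD replicate 1 (0.0552) or 3 (0.0854).

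The receptor genes and the remaining binding proteins were not called. Igf1r stood at 141, 152 and 139 CPM after CPTH6, above all untreated libraries, and its change of 0.35 ± 0.13 missed the threshold (edgeR adjusted p = 0.0868); it passed with DESeq2 (adjusted p = 0.0457) and in a fit of CPTH6 and untreated PLD alone (edgeR adjusted p = 0.0196). After ML324 it stood at 152, 132 and 104 CPM (0.24 ± 0.13). Igf2r stood at 161, 165 and 164 CPM after CPTH6 and at 164, 155 and 161 CPM after ML324, against 146, 155 and 155 CPM in untreated PLD, with intervals of -0.06 to 0.29 and -0.05 to 0.30. Insr stood at 146, 125 and 125 CPM after CPTH6 and at 135, 129 and 107 CPM after ML324, and its changes were -0.39 ± 0.20 and -0.44 ± 0.20 (edgeR adjusted p = 0.192 and 0.149). Igfbp5 stood at 121, 113 and 145 CPM after CPTH6 and at 121, 180 and 85.9 CPM after ML324, against 292, 141 and 230 CPM, with changes of -0.80 ± 0.30 and -0.73 ± 0.30 (edgeR adjusted p = 0.0825 and 0.119). DESeq2 called Igfbp5 lower with CPTH6 (adjusted p = 0.0382), so that it called 7 of the 10 genes there, against 26.8% of all genes. The 7 include Igfbp2, which passed the filter through the untreated libraries and adds nothing to the count. Without PLD replicate 2, its lowest untreated library, Igfbp5 was called lower with CPTH6 (edgeR adjusted p = 0.0237) and with ML324 (0.0368), and with ML324 also without ML324 replicate 2 (0.0385). Igfbp6 had 2.42, 3.06 and 4.66 CPM after CPTH6 and 2.496, 14.6 and 4.43 CPM after ML324, where the high value is again replicate 2, against 4.07, 10.9 and 6.37 CPM in untreated PLD.

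In these comparisons stellate cell and fibroblast markers fell as a whole list, 18 of 18 with CPTH6 (median -3.44) and 18 of 18 with ML324 (median -2.86). Endothelial markers had 8 of 16 lower with CPTH6 and 3 of 16 with ML324, and smooth muscle markers 5 of 6 and 3 of 6. Cholangiocyte markers had 6 of the 15 tested higher with CPTH6 and 1 with ML324, and mesothelial markers 1 of the 5 tested higher with each. Macrophage and Kupffer cell markers had 6 of the 13 tested lower with CPTH6 and 7 with ML324. Hepatocyte markers, whose cells are a known source of Igf1, had 2 of 12 higher and 2 lower with CPTH6 and 1 higher and 3 lower with ML324, with summed levels of 6075 to 7291 CPM after CPTH6, 4384 to 5606 after ML324 and 3362 to 6322 in untreated PLD. The part of these cell types in the falls of Igf1 and the binding proteins was not tested.

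CPTH6 and ML324 were also set against each other, at the same time in the titles. By edgeR 0 of the 9 genes tested were called (0% of all 15989 genes tested), with 2 at an unadjusted p under 0.05, and DESeq2 called 1. Over all genes, 2008 (12.6%) had an unadjusted p under 0.05 and DESeq2 called 293 (1.83%). The DESeq2 call was Igf1, at 11.02, 15.4 and 14.8 CPM after CPTH6 and 7.21, 8.85 and 4.54 CPM after ML324, without overlap and with a difference of 0.96 ± 0.25 (edgeR adjusted p = 0.269; DESeq2 adjusted p = 0.0291). Igfbp4 was lower after CPTH6 by the unadjusted p alone (-0.49 ± 0.18, edgeR adjusted p = 0.34). The 95% intervals were narrow for Igf2r (-0.22 to 0.19), Insr (-0.23 to 0.34) and Igf1r (-0.22 to 0.43), and wide for Igfbp3 (-1.35 to 0.51) and Igfbp6 (-2.4996 to 0.26), so differences of 2-fold between the compounds were outside the interval for the receptors but not for these binding proteins. Igfbp2 was too low to be tested.

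Other genes around the axis were taken from lists by role. Igf2, the second ligand, was low everywhere, at 0.58, 0.80 and 0.59 CPM in PLD and 5.998, 3.69 and 2.17 CPM in WT at 2 months, and it fell in PLD (-2.56 ± 0.46, edgeR adjusted p = 0.00167). The insulin genes Ins1 and Ins2 had at most 8 counts in a library, and Igfbp1, known as a binding protein of hepatocytes, at most 35. Of 10 further secreted and surface genes tested at 2 months, 2 rose and 4 fell in PLD, where 40% of all genes were called. One of the falls, Igfbp1, rested on 0, 4 and 2 counts in PLD and 9, 31 and 35 in WT and adds nothing to the count. The others included Igf2 and Pappa, the protease gene for IGFBP4 (-1.98 ± 0.52, edgeR adjusted p = 0.0118), which stood at 6.23, 6.81 and 5.54 CPM in PLD and 21.5, 20.3 and 32.3 CPM in WT. Igfals, which encodes the acid-labile subunit that stabilises IGF complexes in blood, rose (2.44 ± 0.53, edgeR adjusted p = 0.00441). Pappa, Htra1 and Stc2 fell with both compounds, where 4 of 7 genes tested fell and 0 rose with each. Of all genes tested, 13.7% were called lower with CPTH6 and 11.4% with ML324. Pappa was already low in untreated PLD at 2 months, and whether genes of this list passed the filter through the untreated libraries is not shown here. Htra1, which encodes a secreted protease that can cleave binding proteins, was at 33.5, 37.8 and 26.1 CPM after CPTH6 and 22.6, 36.2 and 18.2 CPM after ML324, against 165, 100 and 152 CPM in untreated PLD.

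Of 38 genes of insulin and IGF receptor signalling, 4 rose and 5 fell in PLD at 2 months, 2 rose and 10 fell with CPTH6, and 2 rose and 7 fell with ML324, with medians of 0.06, -0.03 and -0.06. Over all genes tested, 19.7% rose and 20.3% fell in PLD at 2 months, 9.39% rose and 13.7% fell with CPTH6, and 7.96% rose and 11.4% fell with ML324. In PLD at 2 months the PI3K regulatory subunit gene Pik3r2 rose (0.83 ± 0.09) and Pik3r3, another, fell (-1.996 ± 0.300). Grb10, which encodes an adaptor that restrains both receptors, fell in the same comparison (-1.12 ± 0.14, edgeR adjusted p = 0.000236) and stood at 45.1, 40.2 and 40.6 CPM in PLD and 84.6, 108 and 84.7 CPM in WT. For Pik3r2 (0.99 ± 0.12) and Grb10 (-0.75 ± 0.19) the difference between the genotypes also changed with time (interaction, edgeR adjusted p = 0.00768 and 0.0483). Irs1, the adaptor that both receptors phosphorylate, fell with CPTH6 (-1.25 ± 0.23) and with ML324 (-1.18 ± 0.23), while Irs2, its more abundant relative in CPM, was not called with either (0.27 ± 0.13 and -0.04 ± 0.13). Pik3r2 fell with CPTH6 (-0.50 ± 0.10) and with ML324 (-0.54 ± 0.10). Rictor, a subunit of the kinase complex that phosphorylates AKT, rose with CPTH6 (0.58 ± 0.09) and with ML324 (0.80 ± 0.09). Of 8 growth hormone signalling genes, 1 rose and 2 fell in PLD at 2 months, 2 rose and 2 fell with CPTH6, and 0 rose and 2 fell with ML324. Their medians were 0.09, -0.03 and -0.10, and the shares of all genes are those given above. The receptor gene Ghr fell in PLD at 2 months (-0.87 ± 0.30), with CPTH6 (-0.85 ± 0.15) and with ML324 (-0.71 ± 0.15). Of 12 genes of mannose 6-phosphate sorting, the pathway in which Igf2r acts, 2 rose and 4 fell in PLD at 2 months (40% of all genes were called), with a median of -0.03. Gnptab, whose product starts the mannose 6-phosphate tag, was among the rises (0.76 ± 0.19), against the larger number of falls. With CPTH6 0 of the 12 rose and 3 fell, and with ML324 0 rose and 1 fell, near the shares of all genes given above.

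The genes whose log2 CPM followed each member most closely over the 18 libraries were sought among 10012 protein-coding genes with a mean of at least 10 CPM. Libraries of one group share genotype, treatment and cell make-up, so these values are a description. Igfbp3 was most like Dpep1 (Pearson r = 0.99), Pdgfra (0.99) and Thbs2 (0.99), of which Pdgfra, a receptor gene of fibroblasts, is among the stellate cell and fibroblast markers. Igfbp7 was most like P3h1 (0.97), Adamts2 (0.97) and Pofut2 (0.96), and Igfbp5 most like Sdc2 (0.95), Trps1 (0.95) and Itm2a (0.95). Igfbp4 was most like Pkd1 (0.98), the polycystin-1 gene, Kctd17 (0.98) and Camkk2 (0.98), and Insr most like Tex2 (0.97), Ripply3 (0.96) and Taok2 (0.95). Igf2r was most like Itga2 (0.93), Aqp5 (0.93) and Car9 (0.89), and Igf1r, with the lowest values, most like Psd (0.85), Bche (0.83) and Sox6 (0.83). Igf1 was most like Ank (0.95), Igfbp2 most like Gli3 (0.96) and Igfbp6 most like Adgrd1 (0.92). Among the members themselves, Igfbp3 and Igfbp7 were the closest pair (0.91), and Igf2r and Insr the most opposed (-0.83).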

How the data were processed

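RNA counts of 18 libraries in 6 groups of 3 were used. The deposited count files hold whole numbers of read pairs per gene, made by the authors with featureCounts 1.6.0 on GENCODE vM25, without strand, per the file headers, after STAR 2.7.4a and SAMtools 1.12 on mm10, per the submitters' processing notes, which also name DESeq2 1.26.0. The headers show no option for reads shared by genes. Exon lengths are the deposited Length values. Symbols were matched for 55141 of 55401 genes and for all 176 entries of 13 gene lists. Groups came from the library titles. No pair of libraries held identical counts (0 pairs).

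Counts were tested with edgeR 4.0.16 (R 4.3.3): filterByExpr, TMM scaling, quasi-likelihood F-tests and Benjamini-Hochberg adjustment over all genes of a comparison, with a threshold of 0.05. The 12 untreated libraries shared one fit (8 residual degrees of freedom), the compounds were compared in a fit of 6 (4 residual degrees of freedom), and each compound was set against untreated PLD in a fit of 9 (6 residual degrees of freedom). SEs were derived from the fold change and its F value, and intervals use the test's degrees of freedom. CPM and RPKM use TMM-scaled totals over all libraries, with a prior count of 2 before logs. Alternatives were RLE size factors, no filter, DESeq2 1.42.0, other sets of libraries, a replicate block and each replicate left out. Every gene of the axis was named, with up to 4 called genes of each further list. The members and lists were chosen with earlier results of these data known. The fits were also tested on simulated data. Of 2-fold changes placed there, 44% were called for PLD against WT at 1 month and 35% at 2 months. For time they were 36% in PLD and 42% in WT, and for the interaction 7%. A count of 0 called genes therefore does not show that no gene changed 2-fold.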

Additional observations from a re-analysis of the deposited data

How the results depend on the processing

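With RLE size factors every call and direction of the 10 genes was as with TMM. Without a filter on low counts the number of genes called was 1 in PLD against WT at 1 month, 1 over time in PLD, 3 over time in WT, 1 for the interaction, 1 for CPTH6 against ML324 and 8 for CPTH6 against untreated PLD. The 8 include Igfbp2, which rested on few reads and adds nothing to the count. With ML324, Insr (edgeR adjusted p = 0.0204) and Igfbp5 (6.13e-06) were called in addition without a filter. The main fit, which has the filter and is not the setting of the 8, called 3818 of all 16502 genes tested with CPTH6 (23.1%) and 3203 with ML324 (19.4%). Without a filter and with a replicate block these counts moved less than those listed at the end of this section. DESeq2 called 2 for time in WT and 1 for CPTH6 against ML324. It also called 4 at 2 months (8089 of 17749 genes tested) and 7 for CPTH6 against untreated PLD, Igfbp2 among them (4426 of 16502 genes tested). Leaving out WT replicate 3 at 1 month together with WT replicate 1 at 2 months, chosen after seeing the data, gave 2 called at 1 month.

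Leaving out each replicate in turn gave 0 to 2 genes called at 1 month, 2 to 3 at 2 months, 0 to 1 for the interaction, 5 to 6 with CPTH6 and 4 to 6 with ML324, and 0 in the other comparisons. The counts with either compound include Igfbp2 wherever it was called, and it adds nothing to them. Over all genes the same settings called 99 to 3485 at 1 month, 5324 to 6350 at 2 months and 100 to 1413 for the interaction. With CPTH6 they called 2490 to 3284 and with ML324 1939 to 3043. For time they called 135 to 644 in PLD and 0 to 389 in WT, and between the compounds 0 to 3. No 2 groups had all 3 correlations of their deviations over 0.1, with WT at 1 month and at 2 months nearest (0.08, 0.198 and 0.152). With 3 libraries a group this cannot decide whether the replicate numbers pair the samples. With a replicate block the counts of called genes were 0, 3, 0, 0, 0, 0, 5 and 5 in the order 1 month, 2 months, time within PLD, time within WT, interaction, CPTH6 against ML324, CPTH6 and ML324 against untreated PLD.

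Sign changes occurred in uncalled genes. Under the replicate block they were Igfbp3 at 1 month (0.018), Igf1 (-0.057) and Igf1r (0.016) at 2 months, and Igfbp6 with ML324 (-0.11). Without a filter they were Igf1r at 2 months (0.0053) and Igf2r between the compounds (0.011). Without both WT libraries they were Igf1r (0.15) and Igfbp7 (-0.23) at 1 month, and Igf1r for time in WT (0.11) and the interaction (-0.25).

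Leaving out 1 replicate at a time also moved uncalled log2 fold changes across 0. In PLD against WT at 1 month, the range was -0.17 to 0.16 for Igf1r, -0.82 to 1.06 for Igfbp2, -0.68 to 0.53 for Igfbp3 and -0.22 to 0.49 for Igfbp7. In PLD against WT at 2 months, the range was -0.14 to 0.39 for Igf1, -0.090 to 0.21 for Igf1r, -0.19 to 0.62 for Igfbp3 and -0.42 to 0.013 for Igfbp7. For time in PLD, the range was -0.32 to 0.12 for Insr, -0.45 to 0.13 for Igfbp2 and -0.34 to 0.50 for Igfbp3. For time in WT, the range was -0.52 to 0.31 for Igfbp6, -0.51 to 0.17 for Igfbp7, -1.47 to 0.40 for Igfbp2, -0.82 to 0.38 for Igfbp3 and -0.40 to 0.022 for Igf1r. For the interaction, the range was -0.16 to 0.36 for Igfbp5, -0.18 to 1.00 for Igfbp3, -0.16 to 0.26 for Igf1r and -0.54 to 1.32 for Igfbp2. Between CPTH6 and ML324, the range was -0.034 to 0.14 for Insr, -0.29 to 0.24 for Igfbp5, -0.039 to 0.017 for Igf2r, -0.69 to 0.34 for Igfbp3 and -0.020 to 0.25 for Igf1r. For ML324 against untreated PLD, the range was -0.98 to 0.49 for Igfbp6.

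Counts over all genes depended more on the setting. At 1 month 892 genes were called, against 2194 without a filter, 2477 with DESeq2, 29 when only those 6 libraries were fitted and 3541 without both WT libraries. For time in PLD 1706 were called, against 2818, 3493 and 3811 without a filter, with DESeq2 and in the smaller fit, and 965 with the block. For time in WT 9 were called, against 1224 without a filter, 827 with DESeq2, 184 without both WT libraries, and 0 in the smaller fit and with the block. The interaction gave 1008, against 2282 without a filter, 2374 with DESeq2 and 426 with the block. CPTH6 against ML324 gave 0, against 232 without a filter, 293 with DESeq2 and 1 with the block. The causes were not tested. With 3 libraries a group, changes of the scattered genes Igfbp2, Igfbp3 and Igfbp6 had the widest intervals.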
